A study of Sus scrofa with 2 samples.

Results

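The AMP-activated protein kinase (AMPK) is assembled from a catalytic alpha subunit, a scaffolding beta subunit and a regulatory gamma subunit. Its transcripts were examined in the longissimus dorsi muscle (LM) of Shaziling and Yorkshire pigs. In the deposited table of 65535 unigenes (transcripts assembled de novo from the reads of both breeds), a unigene was taken as a member when its protein match in the nr database carried a pig RefSeq accession of PRKAA1, PRKAA2, PRKAB1, PRKAB2, PRKAG1, PRKAG2 or PRKAG3. This rule found 5 unigenes, 1 for each of 5 of the 7 genes. They were PRKAA1 and PRKAA2 for the alpha subunit, PRKAB2 for the beta subunit, and PRKAG1 and PRKAG3 for the gamma subunit. PRKAB1 and PRKAG2 were not analysed here. The LM came from 3 male full sibs of each breed, 25 days old and with no treatment named in the labels. Shaziling pigs are of a Chinese indigenous fat type, whereas Yorkshire pigs grow rapidly and are lean.

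AMPK senses the energy state of the cell. When ATP falls, AMP and ADP bind to the gamma subunit, an upstream kinase such as LKB1 phosphorylates the alpha subunit, and the active kinase promotes glucose uptake and fatty acid oxidation and restrains the synthesis of lipid, glycogen and protein. The beta subunit joins the complex and binds glycogen. In skeletal muscle, the products of PRKAA2 and PRKAB2 are the prominent alpha and beta isoforms. The gamma isoform encoded by PRKAG3 is largely restricted to skeletal muscle, above all to fast glycolytic fibers. In the pig, a coding variant of PRKAG3 is known for raising muscle glycogen and lowering the ultimate pH of the meat. The deposited values hold no genotype.

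Each breed was represented by 1 column of reads and 1 column of RPKM values (reads scaled by the length of the unigene and by the library total), each named for 3 pigs. The sources used here do not give whether RNA of the pigs was pooled or reads were combined later, so each breed is 1 library, no difference has a replicate check, and breed cannot be told apart from litter. A descriptive field of the sample records attaches the indigenous class to Yorkshire and the lean class to Shaziling, and the titles and column names were followed. The RPKM values corresponded to 33949238 reads for the Yorkshire library and 28305925 for the Shaziling library, and 3 reads on a unigene of 1 kb correspond to an RPKM of 0.0884 and 0.106, respectively. A pair of mitochondrial unigenes took 46.4% of all reads in Yorkshire but 11.8% in Shaziling, which lowers the RPKM of all other unigenes in the Yorkshire library more. The reads of the listed unigenes summed to 87.0% of the total in Yorkshire but 72.7% in Shaziling. The paper reports more unigenes in its final assembly than the table lists. The table thus does not hold every unigene, and all shares below are shares of the unigenes listed. For the 2363 unigenes that reached 10 RPKM in each library, the median ratio of Shaziling to Yorkshire was 1.28, and the ratio of each subunit is also given relative to this median. The 95% confidence intervals are exact intervals on the reads and cover counting error only.

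The catalytic alpha subunits were represented mainly by PRKAA2. Its unigene, contig_2442, had a length of 9115 bp, 5.50 times the 1656 bp that code for the matched protein of 552 residues. It had 6600 reads and 21.3 RPKM in the Yorkshire library, and 6842 reads and 26.5 RPKM in the Shaziling library. Its Shaziling level was thus 1.24 times its Yorkshire level (95% confidence interval 1.20 to 1.29), or 0.973 relative to the median unigene. PRKAA1, the other alpha isoform, which is found in most tissues, lay on contig_11128 (3358 bp, for a protein of 550 residues). Its 667 reads in Yorkshire gave 5.85 RPKM and its 660 reads in Shaziling gave 6.94 RPKM. Its ratio was 1.19 (95% confidence interval 1.06 to 1.32), or 0.929 relative to the median unigene. Relative to this median, the levels of both alpha isoforms therefore differed little between the libraries. Both relative intervals (0.941 to 1.01 for PRKAA2 and 0.833 to 1.04 for PRKAA1) included 1. This holds for this reference only, and with other scalings, given below, the intervals lay below 1.

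The beta subunit gene PRKAB2 had the highest RPKM of the subunits in both libraries. Contig_628 had a length of 4874 bp, 5.97 times the coding length of 816 bp. It had 5562 reads and 33.6 RPKM in Yorkshire, and 5938 reads and 43.0 RPKM in Shaziling. The ratio was 1.28 (95% confidence interval 1.23 to 1.33), the same as that of the median unigene within counting error (95% confidence interval of the ratio relative to it 0.966 to 1.04).

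The gamma subunit genes differed from each other in their ratios. PRKAG1, the gamma isoform expressed in most tissues, lay on contig_560 (1578 bp, for a protein of 330 residues). Its level was 9.67 RPKM in Yorkshire (518 reads) and 10.8 RPKM in Shaziling (482 reads). Its ratio of 1.12 was not distinguishable from 1 (95% confidence interval 0.984 to 1.27), and relative to the median unigene it was 0.874 (0.770 to 0.991). PRKAG3, the gamma isoform of fast muscle, lay on contig_13174 (1882 bp, 1.22 times the coding length of 1542 bp). It had 294 reads and 4.60 RPKM in Yorkshire, and 488 reads and 9.16 RPKM in Shaziling. Of the 5 subunit genes it had the highest ratio, 1.99 (95% confidence interval 1.72 to 2.31), and it was the 1 gene whose interval lay above the median unigene (ratio relative to it 1.56, 1.35 to 1.81). PRKAG3 was thus closer in level to PRKAG1 in the Shaziling library than in the Yorkshire library.

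**Figure D1:**
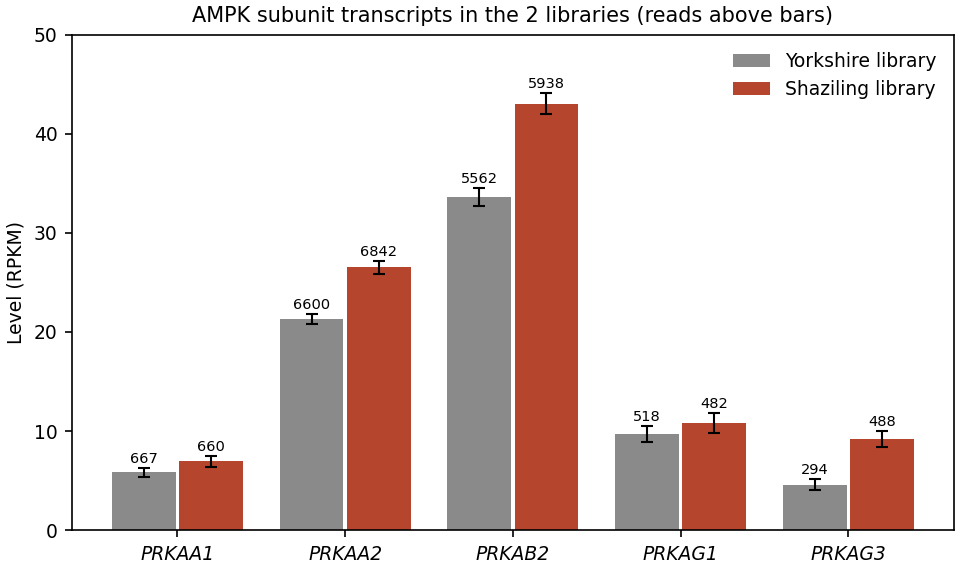
Level in RPKM (linear axis from 0) of the 5 AMPK subunit unigenes in the Yorkshire library (grey) and the Shaziling library (red). Bars are the deposited values of 1 library each, error bars are exact 95% Poisson intervals on the reads, and the numbers above the bars are reads. PRKAB2 and PRKAA2 stand above the other 3 genes in both libraries, and PRKAG3 goes from 4.60 in Yorkshire to 9.16 in Shaziling.

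All 5 unigenes were longer than the coding length of their protein. No sequence was used, so whether each holds the whole coding region was not tested. By RPKM, which is relative to length, PRKAB2 was followed by PRKAA2 and PRKAG1 in both libraries. In Yorkshire the order went on with PRKAA1 and PRKAG3, and the counting intervals of neighbors did not overlap. In Shaziling, PRKAG3 came before PRKAA1, and the intervals of PRKAG1 and PRKAG3 overlapped, while that of the ratio of PRKAG3 to PRKAG1 (0.747 to 0.965) lay below 1. PRKAB2 alone made up 44.8% of the summed RPKM of the 5 genes in Yorkshire and 44.6% in Shaziling. PRKAA2 made up 28.4% and 27.5%, and PRKAG3 6.13% and 9.50%. Within the whole table the RPKM of the subunits stood between the percentiles 91.1 and 98.9 in Yorkshire, and 91.8 and 98.7 in Shaziling. In Yorkshire 746 unigenes had a higher RPKM than PRKAB2 and 5840 a higher one than PRKAG3, and in Shaziling these numbers were 865 and 4101.

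The levels of the subunit classes can be set against each other within a library, without the library total. The analysed alpha genes summed to 27.2 RPKM in Yorkshire and 33.5 in Shaziling, and the analysed gamma genes to 14.3 and 20.0. Alpha transcripts thus had 1.90 times the level of gamma transcripts in Yorkshire and 1.68 times in Shaziling. For PRKAB2 against the gamma genes, the values were 2.36 and 2.16. These ratios leave out PRKAB1 and PRKAG2 and depend on the assembled lengths. Together the 5 unigenes took 13641 reads of the Yorkshire library and 14410 of the Shaziling library.

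To ask which subunits differed between the libraries, a unigene was called when its RPKM differed at least 2-fold at a false discovery rate of 0.05. These are the thresholds of the study, but the study used the program DEGseq and reported far fewer differing unigenes. Its counts are therefore not comparable with those below. The test here was an exact binomial test, two-sided, of the reads given the library totals. Its p-values were adjusted across the whole table by the Benjamini-Hochberg method. This is a test between 2 libraries and not between breeds. Of the 5 subunit unigenes, 0 were called. The background was high: 25.2% of all unigenes were called higher in Shaziling and 7.68% higher in Yorkshire, while for the 37352 unigenes that reached 1 RPKM in either library they were 34.5% and 10.9%. In numbers, 16521 unigenes were called higher in Shaziling and 5032 in Yorkshire as deposited. These became 10666 and 9060 with trimmed mean of M values (TMM) scaling, and 7353 and 11921 with the mitochondrial unigenes out of the totals. Before the fold threshold was applied, 4 of the 5 had an adjusted p below 0.05, all with a higher RPKM in Shaziling, and the same number had an unadjusted p below 0.05. At the adjusted threshold alone, 31.1% of all unigenes passed with the higher level in Shaziling and 10.4% with the higher level in Yorkshire, against 34.7% and 13.3% at the unadjusted one. For the 5750 unigenes of like abundance (a mean RPKM from 5 to 50, with reads in both libraries) these shares were 59.3% and 22.1% adjusted, and 60.8% and 23% unadjusted, so most such unigenes also passed. In the exact binomial test the adjusted p was 4.02e-20 for PRKAG3, 0.0064 for PRKAA1 and 0.164 for PRKAG1. PRKAG3 missed the call by the fold threshold, which lies within its interval, and with a threshold of 1.5 it was the 1 subunit called. At that threshold the share of all unigenes called was 28.8% toward Shaziling and 9.08% toward Yorkshire, and 44% and 12.7% for those of like abundance, so 1 of 5 was not above the background.

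All 5 genes had a higher RPKM in Shaziling as deposited, with a median ratio of 1.24 (median log2 ratio 0.31). This was below the median ratio of 1.36 among the unigenes of like abundance, and below that of 1.47 among those that reached 1 RPKM in either library. Within the former set the interquartile range of the ratios was 0.904 to 2.17. The ratios of PRKAA1, PRKAA2, PRKAB2 and PRKAG1 stood between the percentiles 37.2 and 45.9 of that set, and PRKAG3 at 71.0. PRKAG3 was therefore set apart within the AMPK genes, while many unigenes of like abundance had larger ratios.

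The direction for PRKAA1, PRKAA2, PRKAB2 and PRKAG1 depended on how the libraries were scaled, and that for PRKAG3 did not. With the TMM scaling, the ratios of these 4 genes were between 0.823 (PRKAG1) and 0.944 (PRKAB2). Their 95% confidence intervals then all lay below 1 (PRKAA1 0.785 to 0.976, PRKAA2 0.886 to 0.948, PRKAB2 0.910 to 0.979, PRKAG1 0.725 to 0.933). When the pair of mitochondrial unigenes was taken out of the totals, the ratios were between 0.678 (PRKAG1) and 0.778 (PRKAB2). In that setting the median log2 ratio of the unigenes that reached 10 RPKM in each library was itself -0.365, against -0.0864 with TMM. Reversals and calls toward Yorkshire in that setting are to be read against this shift. PRKAG3 remained higher in Shaziling under all 6 scalings. Its ratio was 1.47 with TMM and was lowest, 1.21 (95% confidence interval 1.04 to 1.40), with the totals without mitochondrial unigenes.

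**Figure D2:**
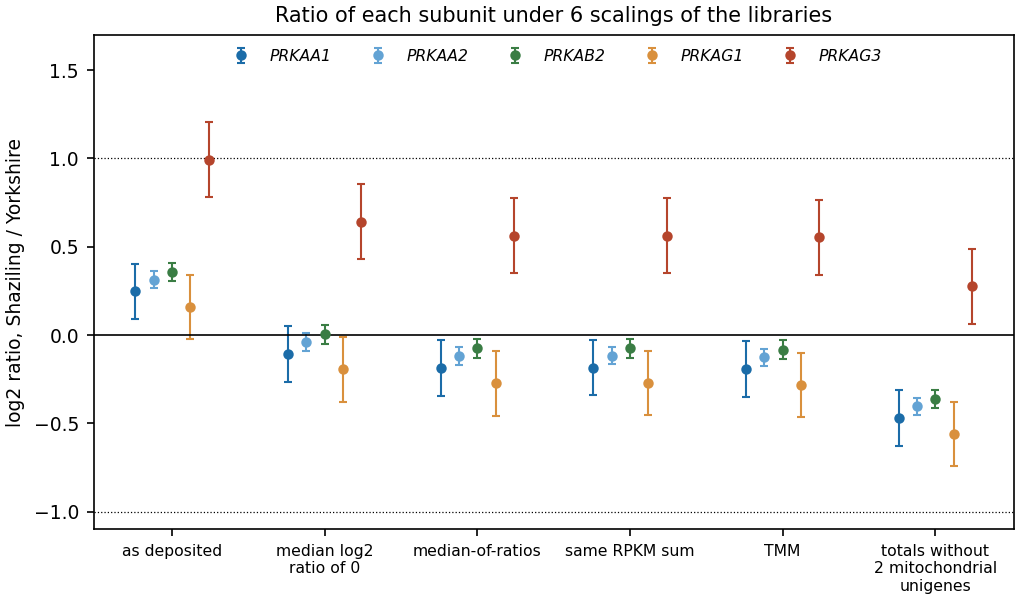
Log2 ratio of Shaziling to Yorkshire (vertical axis) of the 5 subunit genes under the deposited RPKM scaling and 5 other scalings of the libraries (horizontal axis). Points are the ratios, error bars are exact 95% intervals on the reads, the solid line marks equal levels and the dotted lines a fold change of 2. PRKAG3 lies above 0 in each scaling and the other 4 genes move from above 0 to near or below it.

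The balance of isoforms within a subunit class needs no scaling, because both transcripts come from the same library and unigene lengths cancel between the libraries. For the alpha subunit, PRKAA2 had 3.65 times the level of PRKAA1 in Yorkshire (95% confidence interval 3.37 to 3.95) and 3.82 times in Shaziling (3.53 to 4.14). PRKAA2 thus held 78.5% of the summed alpha RPKM in Yorkshire (77.1% to 79.8%) and 79.2% in Shaziling (77.9% to 80.6%). The balance in Shaziling was 1.05 times that in Yorkshire, and its interval of 0.934 to 1.17 included 1. A difference in the muscle share of the alpha subunit was not detectable at this depth.

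For the gamma subunit the balance was different in the libraries. PRKAG3 had 0.476 times the level of PRKAG1 in Yorkshire (95% confidence interval 0.411 to 0.550) and 0.849 times in Shaziling (0.747 to 0.965). Its share of the summed RPKM of PRKAG1 and PRKAG3 was 32.2% (29.1% to 35.5%) in Yorkshire and 45.9% (42.8% to 49.1%) in Shaziling, and these intervals did not overlap. The balance in Shaziling was 1.78 times that in Yorkshire, with an exact 95% confidence interval of 1.47 to 2.17. These intervals cover counting error only. Balances of other pairs of unigenes were not computed, so how often a pair differs this much between the libraries is not known. The ratios of single unigenes of like abundance spread widely, with an interquartile range of 0.904 to 2.17. By RPKM, PRKAG1 remained the more abundant of the pair in both. Within a library this order depends on the assembled lengths. In Shaziling PRKAG3 had 488 reads on 1882 bp and PRKAG1 482 reads on 1578 bp.

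All 10 pairs of subunit genes were compared in the same way, with intervals widened to 99.5% so that they hold over the 10 comparisons. The ratio of PRKAG3 exceeded that of each of the other 4 genes, and these 4 widened intervals were the only ones that did not include 1. PRKAG3 was 1.55 times higher relative to PRKAB2 in Shaziling than in Yorkshire (1.25 to 1.93), 1.60 times relative to PRKAA2 (1.29 to 1.99) and 1.68 times relative to PRKAA1 (1.29 to 2.18). For the 6 pairs without PRKAG3, the largest value was 1.15, for PRKAB2 relative to PRKAG1 (0.951 to 1.38). The narrowest widened interval, for PRKAB2 relative to PRKAA2, was 0.959 to 1.11. The transcripts of the prominent muscle isoforms of the alpha and beta subunits thus kept nearly the same proportion in both libraries. The spread of these balances between pigs, and that of balances between other genes, is not known.

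**Figure D3:**
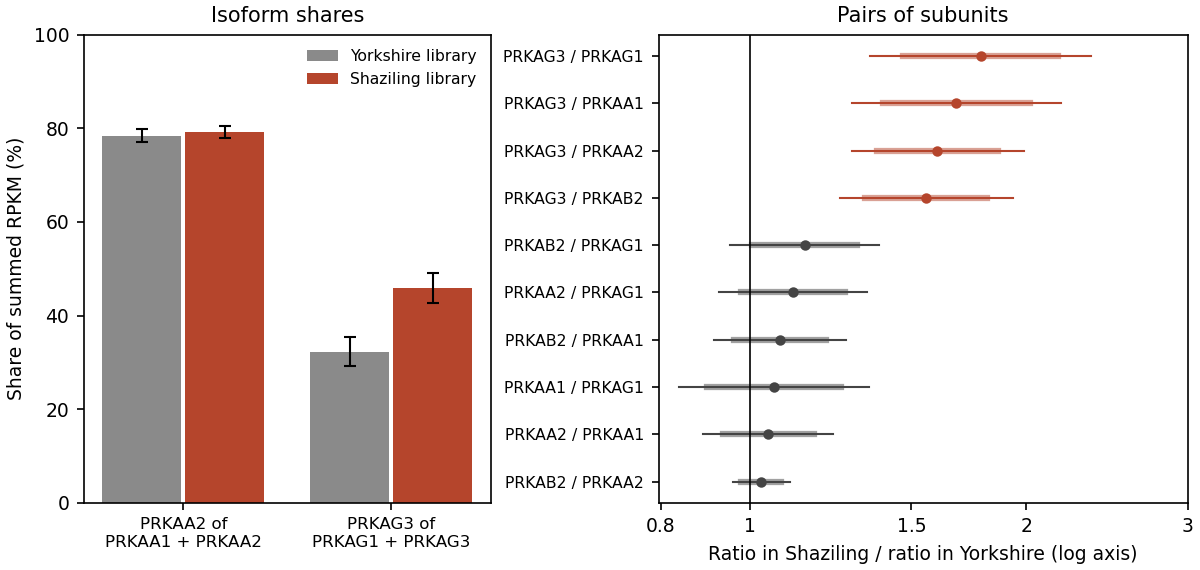
Left, share (%) of PRKAA2 in the summed RPKM of PRKAA1 and PRKAA2, and of PRKAG3 in that of PRKAG1 and PRKAG3, in the Yorkshire (grey) and Shaziling (red) libraries, with exact 95% intervals. Right, for each pair of genes, the level of the first relative to the second in Shaziling divided by the same in Yorkshire (log axis), with 95% (thick) and 99.5% (thin) intervals on the reads. The alpha share is 78.5% and 79.2%, the gamma share goes from 32.2% to 45.9%, and the 4 pairs with PRKAG3 (red) lie to the right of 1.

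Other genes of the pathway were taken from 9 lists, with 1 unigene (that with most reads) for each gene. A unigene was found for 28 of the 87 listed genes, and 8 of these unigenes were shorter than the coding length of their protein. A gene symbol could be given to 5698 of the 17153 unigenes with a RefSeq match. A listed gene that was not found may thus be present under another match or among unigenes not listed. This limit also holds for the fiber and cell markers below. Of the 28, 9 (32.1%) were called higher in Shaziling and 0 higher in Yorkshire. Over all 4484 genes with a symbol, these shares were 36.2% and 3.14%, so the share of the pathway genes higher in Shaziling was near the background. The median ratio of the 28 genes was 1.32, against 1.57 over all genes with a symbol. When the mitochondrial unigenes were taken out of the totals, 3 of the 28 were called higher in Shaziling and 5 higher in Yorkshire. For 10 of the 28, all with a higher RPKM in Shaziling as deposited and none called, the direction reversed under 1 or more of the other scalings. These were STRADB, PPP1R3C, ACACB, GYS1, MTOR, FOXO3, TFAM, AK3, AK4 and CKMT2.

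Upstream of AMPK, a unigene was found for 1 of 8 genes. STRADB, a pseudokinase of the LKB1 complex, had 54.6 RPKM in Yorkshire and 61.2 in Shaziling, above each AMPK subunit, and a ratio of 1.12 (95% confidence interval 1.07 to 1.17). Of 7 phosphatase subunits only PPP1R3C was found, which targets protein phosphatase to glycogen. Its RPKM was 16.3 and 21.5, and its ratio was 1.32. Of 13 AMPK-related kinases, 3 were found. NUAK1 was called on few reads (24 in Yorkshire and 43 in Shaziling, ratio 2.15, 95% confidence interval 1.28 to 3.70), while SNRK (0.774, 0.707 to 0.847) and MELK (0.720, 0.378 to 1.33) had ratios below 1 and were not called. The median ratio of the 3 was 0.774, and SNRK and MELK were called higher in Yorkshire when the mitochondrial unigenes were taken out of the totals. None of the 3 genes of the folliculin complex, a regulator of AMPK, was analysed here.

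Targets of AMPK in lipid metabolism included 5 of 10 genes, of which 3 were called, all higher in Shaziling. FASN, the fatty acid synthase, had 52 reads and 0.512 RPKM in Yorkshire, and 261 reads and 3.08 RPKM in Shaziling, which was 6.02 times as high (95% confidence interval 4.46 to 8.27). SREBF1, a transcription factor of lipid synthesis, had 0 reads in Yorkshire and 14 in Shaziling on a fragment of 412 bp, and was at least 5.60-fold higher with 3 reads taken as the floor of the Yorkshire library. The lower 95% limit of its ratio, which includes the counting error of the 14 reads, was 3.98. CPT1A, which imports fatty acids into mitochondria in many tissues, had a ratio of 2.32 (2.08 to 2.58). The acetyl-CoA carboxylases are direct substrates of AMPK and were not called. ACACB, the form known for controlling fatty acid oxidation in muscle, had 2193 reads in Yorkshire and 1924 in Shaziling and a ratio of 1.05 (0.989 to 1.12), and ACACA, the form of lipid synthesis, had 65 and 100 reads and a ratio of 1.85.

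In glucose and glycogen metabolism, 2 of 8 genes were found. TXNIP, which restrains glucose uptake and is marked for degradation by AMPK, had 241 RPKM in Yorkshire and 718 in Shaziling, and was called with a ratio of 2.98 (95% confidence interval 2.92 to 3.04). GYS1, the muscle glycogen synthase and an AMPK substrate, had levels of 41.9 and 47.0 RPKM and a ratio of 1.12. Of 14 genes of growth, protein synthesis and autophagy, 8 were found and 4 were called, all higher in Shaziling. These were EIF4EBP1, an inhibitor of translation initiation (ratio 3.45), TSC2, an inhibitor of mTORC1 signaling that AMPK phosphorylates (3.07), EEF2K, the kinase that inhibits translation elongation (2.41), and EEF2, the elongation factor itself (2.25). MTOR (1.24) and FOXO3 (1.42) were not called. BECN1 (0.975, 95% confidence interval 0.892 to 1.07) and RPS6KB1 (0.809, 0.754 to 0.868) had ratios below 1 and were not called either. RPS6KB1 was called higher in Yorkshire when the mitochondrial unigenes were taken out of the totals.

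Of 11 genes of transcription and mitochondrial biogenesis, 4 were found and 0 were called. TFAM, which maintains mitochondrial DNA, had 8.25 RPKM in Yorkshire and 9.96 in Shaziling, and MFF, a mitochondrial fission factor phosphorylated by AMPK, had 37.4 and 29.8 on a fragment of 384 bp. Among the enzymes of adenine nucleotides, which set the AMP signal, 4 of 13 were found and 0 were called. CKMT2, the mitochondrial creatine kinase of muscle, had levels of 41.3 and 54.3 RPKM and a ratio of 1.32, and AK3, an adenylate kinase, had a ratio of 1.43. With TMM scaling the calls of NUAK1, CPT1A, EEF2K and EEF2 were lost, and when the mitochondrial unigenes were taken out of the totals those of TXNIP and TSC2 were lost as well.

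**Figure D4:**
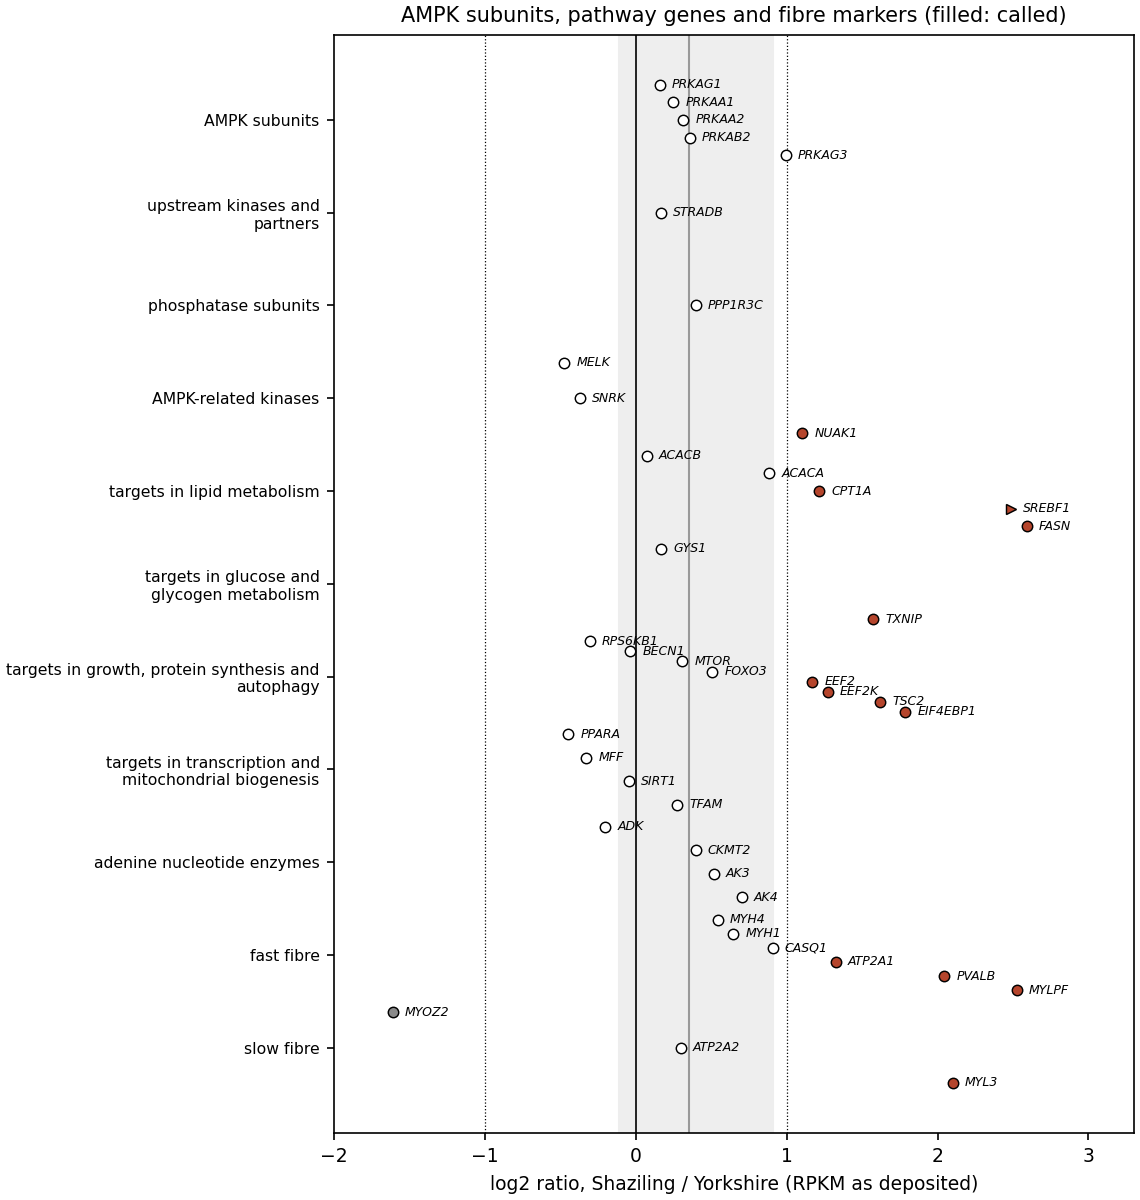
Log2 ratio of Shaziling to Yorkshire (RPKM as deposited) of the AMPK subunits, the pathway genes and the fiber markers by list, 1 point a gene. Filled points were called (red, higher in Shaziling; grey, higher in Yorkshire), the triangle is a lower bound (SREBF1), the grey line and band are the median and interquartile range of the unigenes that reached 10 RPKM in each library, and dotted lines mark a fold change of 2. The subunits other than PRKAG3 lie close to the grey line, and PRKAG3 lies at 0.99.

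Because PRKAG3 is known for fast fibers, the fiber markers are given beside it. Muscle markers were abundant in both libraries. Of 12 fast fiber genes, 6 were found, 4 of them as fragments shorter than the coding length. Their RPKM summed to 6679 in Yorkshire and 12572 in Shaziling (1.88 times as high), and 3 were called higher in Shaziling. Over all genes with a symbol, 36.2% were called higher in Shaziling and 3.14% higher in Yorkshire, and the median ratio was 1.57. The ratio of PRKAG3, 1.99, lay between those of the calcium-handling genes CASQ1 (1.87) and ATP2A1 (2.50), above those of the fast myosin heavy chains MYH4 (1.46) and MYH1 (1.57), whose reads may be shared among paralogs and whose direction reversed when the mitochondrial unigenes were taken out of the totals, and below those of PVALB (4.13) and MYLPF (5.75). Of 10 slow fiber genes, 3 were found, with a summed RPKM of 667 and 906. MYL3 was called higher in Shaziling (4.29) and MYOZ2 higher in Yorkshire (ratio 0.327), and ATP2A2 was not called (1.23). The part of fiber makeup in the level of PRKAG3 was not tested.

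Markers of other cells also differed between the libraries. The background of calls over all genes with a symbol (36.2% higher in Shaziling and 3.14% higher in Yorkshire) applies to these lists as well. In bulk muscle, fewer cells of a type and less RNA per cell cannot be told apart. The endothelium and blood list (5 of 6 genes found) had a summed RPKM of 54.1 in Yorkshire and 270.2 in Shaziling, with VWF, HBB and ALAS2 called higher in Shaziling. Most of this difference lay in HBB, with 18.5 RPKM in Yorkshire and 207 in Shaziling. PECAM1 (ratio 1.36) and KDR (1.53) were not called. Their direction reversed when the mitochondrial unigenes were taken out of the totals. The adipocyte list (2 of 7 found) summed to 27.5 and 52.1. Most of this was FABP4 (27.1 RPKM in Yorkshire and 50.5 in Shaziling, ratio 1.86), which was not called. CIDEC was called higher in Shaziling on few reads (8 in Yorkshire and 28 in Shaziling). The leukocyte list (1 of 6 found, CSF1R) summed to 0.619 and 3.89. The fibroblast list (4 of 6 found, 0 called) summed to 721 and 685, with most reads on COL3A1 and COL1A2. Its genes were split in direction. COL3A1 (ratio 1.04) and COL1A2 (1.24) had a higher RPKM in Shaziling as deposited, which reversed under each of the other scalings. LUM (0.505) and DCN (0.813) had a higher RPKM in Yorkshire under every scaling, and LUM fell just short of the fold threshold as deposited. The part of these cells in the subunit levels was not tested.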

How the data were processed

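The authors sequenced cDNA of the LM as paired-end reads of 100 bp, trimmed the reads, built contigs de novo with CLC Genomics Workbench, joined these with CAP3 and matched the unigenes to nr by BlastX. The submitters' processing notes list CASAVA 1.8 and TopHat2 2.0.6, and the role of these tools was not given in the sources used here. As deposited, the counts per unigene are whole and not normalized, and the treatment of reads that match several unigenes was not given in the sources used here. For RPKM, the authors used Qualimap. Each RPKM value was within 0.1% of that from its count, length and 1 library total. The number after each protein identifier was read as the protein length in residues. Other deposited values are unigene lengths in bp. Every column of values was used.

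Members were found by the versioned RefSeq accessions of the assembly Sscrofa11.1. Other genes were matched without the version (5698 unigenes, 4484 symbols). No sequence or coordinate was used. The members and lists were chosen with earlier results of these data known. All subunit unigenes are named. From each list, the genes called (at most 4, by reads) or, with none called, the 2 with most reads are named. SNRK, MELK, ACACA, ACACB, GYS1, MTOR, FOXO3, BECN1, RPS6KB1, AK4, CASQ1, MYH1, MYH4, ATP2A2, FABP4, PECAM1, KDR, LUM and DCN were added after their values were seen.

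Ratios are RPKM ratios without a pseudocount. Reads were compared across all unigenes with a two-sided exact binomial test (outcomes no more likely than the observed), checked on simulated data. Intervals are exact (Clopper-Pearson, Poisson, or conditional for balances). Alternatives were other thresholds, a minimum RPKM of 1, pseudocounts of 1 and 0.1, other choices of unigene, and TMM (edgeR 4.0.16), median-of-ratios (DESeq2 1.42.0), equal RPKM sums, a median log2 ratio of 0, and totals without the pair of mitochondrial unigenes. With 1 library a breed, edgeR and DESeq2 were used for scaling only. Software was R 4.3.3 and Python 3.11.15 with scipy 1.17.1, numpy 2.4.6 and pandas 2.3.3.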

Additional observations from a re-analysis of the deposited data

How the results depend on the processing

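The balances of PRKAA2 to PRKAA1 and of PRKAG3 to PRKAG1 do not involve the library totals, and they had the same values with the longest unigene and with summed unigenes, since each gene had 1 unigene. The number of subunits called was 0 under each alternative except a fold threshold of 1.5 (1 called, PRKAG3). The number of pathway genes called was 9, and it was 4 with a fold threshold of 3 and 5 with TMM, median-of-ratios, equal RPKM sums and a median log2 ratio of 0. The median log2 ratio of the subunits (0.31) reversed to -0.13 with TMM, -0.039 with a median of 0, -0.12 with equal sums, -0.40 with totals without the pair of mitochondrial unigenes and -0.12 with median-of-ratios. The log2 ratios of single subunits under these scalings were computed after the data were seen. With TMM they were -0.19 (PRKAA1), -0.13 (PRKAA2), -0.083 (PRKAB2) and -0.28 (PRKAG1). With a median of 0 they were -0.11 (PRKAA1), -0.039 (PRKAA2) and -0.19 (PRKAG1), and PRKAB2 was not reversed. With equal sums they were -0.18 (PRKAA1), -0.12 (PRKAA2), -0.075 (PRKAB2) and -0.27 (PRKAG1), and with median-of-ratios -0.19 (PRKAA1), -0.12 (PRKAA2), -0.076 (PRKAB2) and -0.27 (PRKAG1). Without the mitochondrial unigenes they were -0.47 (PRKAA1), -0.40 (PRKAA2), -0.36 (PRKAB2) and -0.56 (PRKAG1). PRKAG3 kept its direction in each. The PRKAB2 to PRKAB1 and PRKAG2 to PRKAG1 balances were also planned and gave no value, since PRKAB1 and PRKAG2 were not analysed here. No paired analysis was possible because each breed has 1 library. No library could be left out for the same reason. The fewest reads behind a subunit value were 294, and the spread between pigs was not measured.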
